A study of Mus musculus with 6 samples.

Results

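The Slc22 family encodes membrane carriers that move organic cations, organic anions and zwitterions such as carnitine across the plasma membrane. The genes described here are 7 of its members, Slc22a5, Slc22a7, Slc22a15, Slc22a18, Slc22a23, Slc22a27 and Slc22a29, out of 18193 genes with a probe set of their own on the array. They were chosen from their signals in the same comparison of ketogenic with chow livers, so their differences between the diets are a description, and where a fit across all genes places them past its threshold, that is part of how they were chosen and no test of them. Every probe set whose annotation names exactly 1 of these genes was taken, which gave 10 probe sets among 45101: Slc22a5, Slc22a15 and Slc22a18 had 2 each and the other 4 genes had 1 each.

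Gene expression was measured in livers of C57BL/6 mice on 6 one-colour arrays, 3 from mice fed a ketogenic diet (F3666, Bio-Serv), which is mostly fat with hardly any carbohydrate, and 3 from mice fed chow (Labdiet 5008), a grain-based diet. Feeding began at 8 weeks of age and lasted 6 weeks, and the mice were fed freely until their livers were taken in the morning. RNA of 2 to 3 animals per diet was used, and neither the sex nor whether an array held 1 mouse or a pool is given in the sources used here, so errors describe the spread between arrays only, which may in part be technical. Values are the deposited MAS5 signals, a linear intensity per probe set. A background signal of 10.8 was taken from bacterial control probe sets that no mouse transcript should bind, and signals of different probe sets are not compared with each other, because probes differ in affinity.

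In liver, organic anion carriers of the family bring drugs and metabolites from blood into hepatocytes, while Slc22a5, also known as OCTN2, is the sodium-dependent carnitine transporter. Carnitine carries long-chain fatty acids into mitochondria, where they are oxidised and, in liver, turned into ketone bodies, and mice that lack Slc22a5 develop carnitine deficiency. Slc22a5 is a known target of PPAR-alpha, a fatty acid receptor that switches on fat oxidation in the fasted liver. Slc22a27 and Slc22a29 belong to a group of organic anion transporter genes that expanded in rodents.

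Gene order in RefSeq (GRCm38.p6) places Slc22a26, Slc22a27, Slc22a28, Slc22a29 and Slc22a30 next to each other on chromosome 19. The promoters of Slc22a27 and Slc22a29, whose signals were both high on ketogenic and low on chow arrays, are shown with that of the carnitine transporter Slc22a5. RefSeq promoters, 250 bases before to 50 bases after the start of a gene, were at hand for 6 of the 7 genes, and that of Slc22a7 was not used here. They are printed 5′ to 3′ on the strand of the gene, and capitals mark a nuclear receptor half-site.
Slc22a5, minus strand, chr11:53891654-53891953: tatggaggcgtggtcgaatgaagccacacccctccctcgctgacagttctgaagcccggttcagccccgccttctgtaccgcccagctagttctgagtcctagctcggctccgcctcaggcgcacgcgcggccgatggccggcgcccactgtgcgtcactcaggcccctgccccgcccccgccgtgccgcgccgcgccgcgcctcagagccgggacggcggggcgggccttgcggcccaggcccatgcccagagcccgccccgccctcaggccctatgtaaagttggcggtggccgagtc
Slc22a27, minus strand, chr19:7965978-7966277: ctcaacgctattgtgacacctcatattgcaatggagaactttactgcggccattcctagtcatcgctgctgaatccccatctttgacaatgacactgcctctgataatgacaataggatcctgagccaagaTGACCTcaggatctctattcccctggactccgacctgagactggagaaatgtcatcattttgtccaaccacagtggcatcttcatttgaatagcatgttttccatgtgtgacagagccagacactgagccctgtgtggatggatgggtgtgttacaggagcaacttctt
Slc22a29, minus strand, chr19:8218851-8219150: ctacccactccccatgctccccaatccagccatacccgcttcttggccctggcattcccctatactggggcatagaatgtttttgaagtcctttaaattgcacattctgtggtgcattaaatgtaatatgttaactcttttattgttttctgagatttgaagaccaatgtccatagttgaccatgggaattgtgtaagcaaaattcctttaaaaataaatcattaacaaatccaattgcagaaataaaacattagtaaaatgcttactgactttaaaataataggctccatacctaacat

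These promoters differed in base composition. G and C made up 72.7% of the Slc22a5 promoter, 47% of the Slc22a27 promoter and 36.3% of the Slc22a29 promoter, against a median of 52.7% over 32851 promoters of the same length. Both strands were searched for 6 motifs, allowing overlaps. The half-site AGGTCA was found once in Slc22a27, as its reverse complement starting 119 bases before the gene start, and in 16.3% of all promoters. In these 3 windows there was no match to a direct repeat of the half-site with 1 base between, as PPAR-alpha binds (0.0396% of all promoters), the STAT motif TTCNNNGAA (8.3%), the palindromic HNF1 motif (0.00913%), the cyclic AMP response element TGACGTCA (1.79%) or TATAAA (13.6%). A match is a description of the letters only.

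The plot of signals by array shows the members with the background. Of the 7 genes, 6 had a probe set bright enough to be tested, and Slc22a15 did not. On chow arrays the mean log2 signals of Slc22a27 and Slc22a29 were 1.67 and 2.70, under the filter on dim probe sets at 3.35. Both genes passed that filter only through their ketogenic signals. In limma's fit across all 11866 genes, 3 of the 6 tested genes lay past an adjusted p of 0.05, Slc22a27 and Slc22a29 higher and Slc22a7 lower on the ketogenic diet. Of all genes tested 7.39% were past it (6.52% higher and 0.868% lower). Over the 22515 probe sets kept, 8 of them the members', the same 3 were past it, as were 4.64% of all (4.08% higher and 0.564% lower). Signals of the diets did not overlap for these 3 and overlapped for the other 5 probe sets, while they did not overlap for 29.2% of all genes (24% with ketogenic above chow and 5.17% below) and 26.7% of all probe sets (21.6% above and 5.06% below). Since the genes were chosen on this contrast, nothing is read from those counts. The median log2 change was 0.54 over the 6 genes, against 0.23 over all genes tested.

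**Figure D1:**
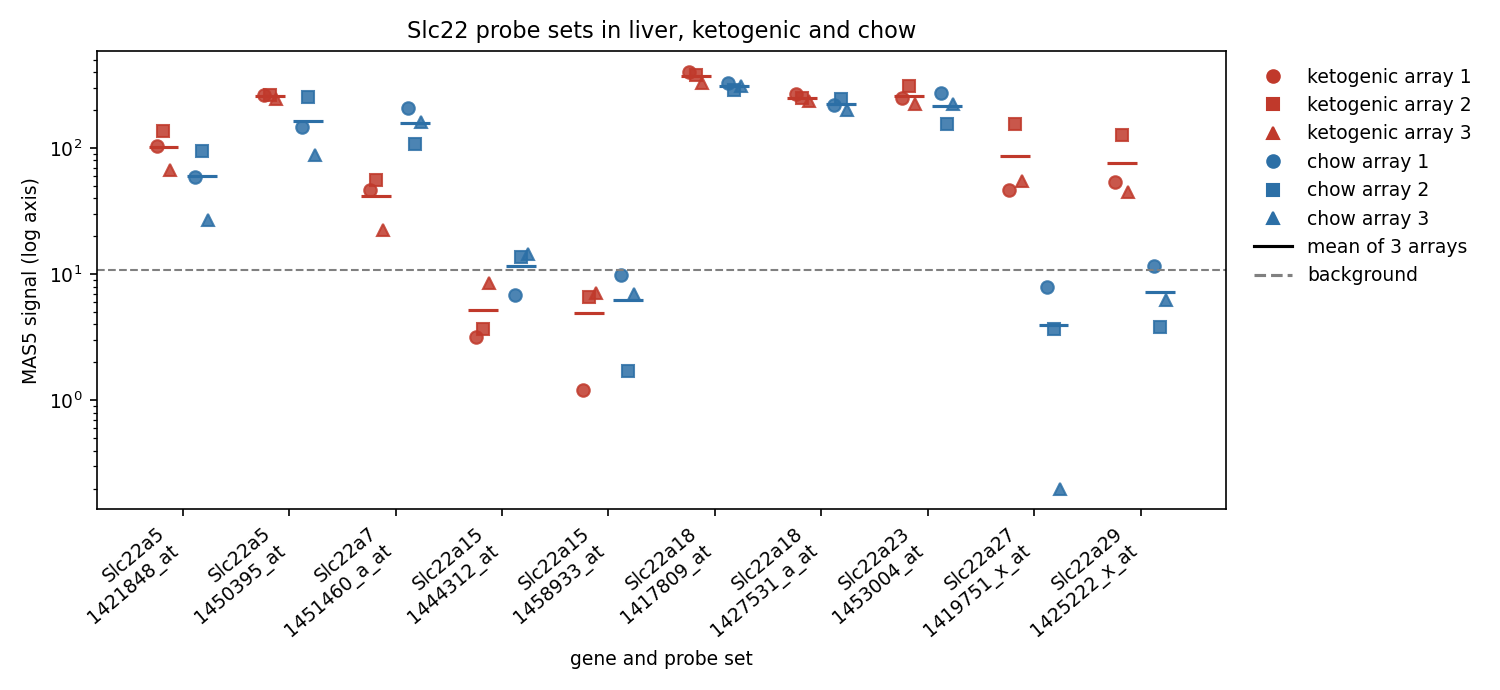
Signal (log axis) of each of the 10 Slc22 probe sets on the 3 ketogenic arrays (red, left) and the 3 chow arrays (blue, right), with a bar at the mean of 3 arrays and a dashed line at the background of 10.8. Slc22a27 lies above the background on all ketogenic arrays and under it on all chow arrays, Slc22a7 is lower on all ketogenic arrays, and the other members overlap between the diets except Slc22a29.

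Slc22a7, also known as OAT2, is an organic anion carrier of the blood-facing membrane of hepatocytes. Its only probe set had signals of 47, 56.4 and 22.5 on ketogenic arrays 1, 2 and 3, against 207.7, 107.4 and 160.8 on chow arrays 1, 2 and 3. All 3 ketogenic arrays lay below all 3 chow arrays, and all 6 signals were above the background. Its mean was 42 ± 17.5 on ketogenic and 158.6 ± 50.2 on chow arrays (SD, n = 3 each), and its log2 change was -1.97 ± 0.40 (SE).  Under the 4 other scalings the change of Slc22a7 ranged from -2.24 to -1.61, and when 1 array at a time was left out from -2.23 to -1.57. Without chow array 1, on which Slc22a7 was brightest, its log2 change was -1.75 and it was no longer past the threshold of the fit.

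Slc22a27 and Slc22a29 showed the widest differences among the 7 genes. Slc22a27 had signals of 46.2, 156.7 and 55.1 on ketogenic arrays 1, 2 and 3, against 7.9, 3.7 and 0.2 on chow arrays 1, 2 and 3. All chow signals of Slc22a27 were under the background, so that only a lower bound of the difference can be given. Its mean was 86 ± 61.4 on ketogenic and 3.93 ± 3.86 on chow arrays (SD, n = 3 each). With signals under the background raised to it, Slc22a27 was at least 6.84-fold higher on the ketogenic diet, a bound that allows for the background and not for the spread between arrays.

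Slc22a29 had signals of 54.3, 127.9 and 44.6 on ketogenic arrays 1, 2 and 3, against 11.7, 3.8 and 6.2 on chow arrays 1, 2 and 3. Chow array 1 lay just above the background and the other chow arrays under it, and the diets did not overlap. The mean was 75.6 ± 45.6 on ketogenic and 7.23 ± 4.05 on chow arrays (SD, n = 3 each). By the same kind of bound as for Slc22a27, Slc22a29 was at least 6.12-fold higher on the ketogenic diet. Both genes were brightest on ketogenic array 2, where the signal was 3.39 times that of the dimmest ketogenic array for Slc22a27 and 2.87 times for Slc22a29. Without ketogenic array 2 the fitted log2 change was 3.99 for Slc22a27, whose mean then fell under the filter on dim probe sets, and 2.92 for Slc22a29. Without chow array 3 or 1 that of Slc22a27 was 3.77 or 5.19. With all arrays the fitted changes were 4.53 ± 0.71 and 3.38 ± 0.50 (log2, SE). They depended on how low signals were treated: with a floor at the background they were 2.77 for Slc22a27 and 2.61 for Slc22a29, and with a pseudocount of 16 they were 2.22 and 1.88.

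Both probe sets carry the suffix x, which the maker of the array gives to probe sets whose probes can also bind other transcripts, and the 2 genes are close relatives. Their log2 signals correlated at 0.946 over the 6 arrays, which share the difference between the diets. Signals of Slc22a27 and Slc22a29 transcripts therefore cannot be told apart with certainty here. Other probe sets of the chromosome 19 cluster bear on this, as the plot of that cluster shows. A probe set annotated to both Slc22a29 and Slc22a30 had signals of 42.1, 97.8 and 40.4 on ketogenic arrays, against 11.7, 11.4 and 7 on chow arrays, again with no overlap and with ketogenic array 2 the brightest.

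The probe set of Slc22a30 alone did not share that pattern. Its signals were 313.7, 349.2 and 244.3 on ketogenic arrays, against 619.4, 290.4 and 442.8 on chow arrays, with overlap between the diets and a log2 change of -0.52 (SE 0.32, adjusted p = 0.358 in limma). Slc22a26 had signals of 20.1, 28.2 and 13.1 on ketogenic arrays, against 18.5, 6.9 and 15.2 on chow arrays, and its log2 change of 0.65 (SE 0.42) had adjusted p = 0.393 in limma. Neither neighbour passed the threshold as deposited or under the alternatives tried, with adjusted p between 0.132 and 0.677 for Slc22a30 and between 0.0887 and 0.791 for Slc22a26. That they differ from Slc22a27 and Slc22a29 in response was not tested. Slc22a28 was not analysed here.

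**Figure D2:**
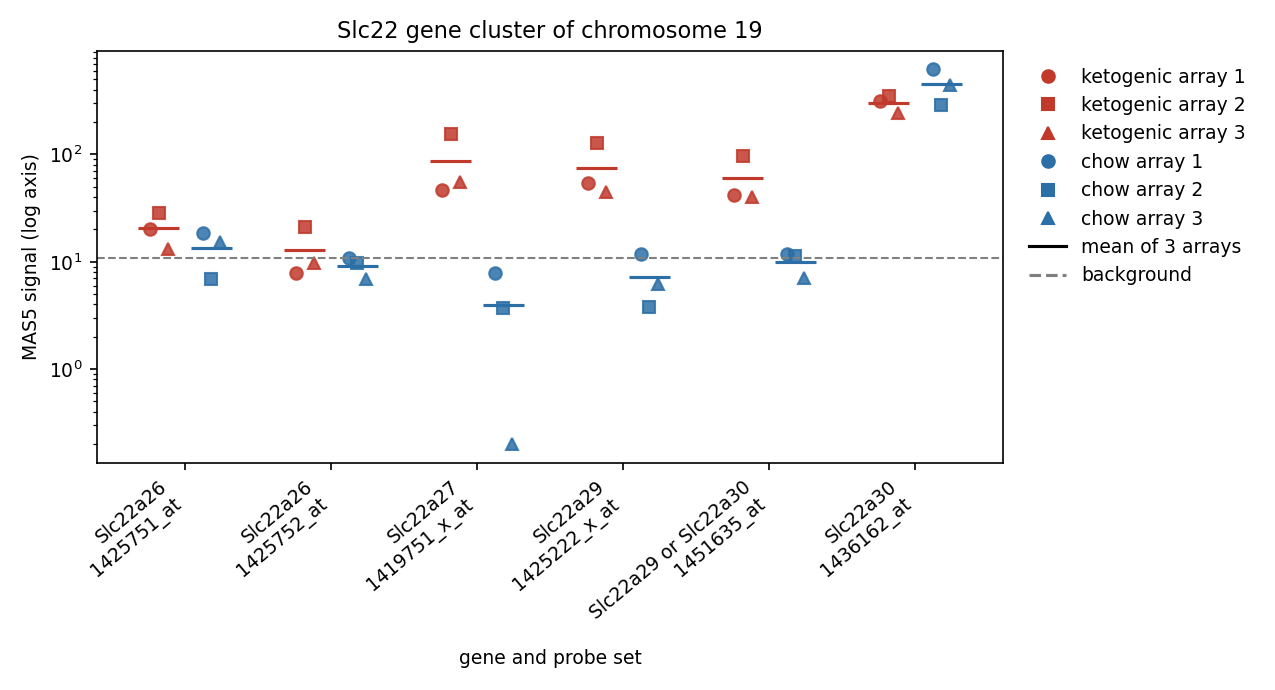
Signal (log axis) of the probe sets of the Slc22 cluster on chromosome 19, in gene order, on ketogenic arrays (red, left) and chow arrays (blue, right), with a bar at the mean of 3 arrays and a dashed line at the background. The probe sets of Slc22a27, Slc22a29 and of Slc22a29 or Slc22a30 lie higher on every ketogenic array than on any chow array, while those of Slc22a26 and Slc22a30 overlap.

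Slc22a5, the carnitine transporter, was measured by 2 probe sets. Its brighter one had signals of 262.5, 264.5 and 243.6 on ketogenic arrays 1, 2 and 3, against 148.1, 253 and 87.9 on chow arrays 1, 2 and 3. The ketogenic signals lay close together, and chow array 2 reached the same range while chow arrays 1 and 3 lay below it. The mean was 256.9 ± 11.5 on ketogenic and 163 ± 83.6 on chow arrays (SD, n = 3 each), with a log2 change of 0.79 ± 0.38 (SE). The dimmer probe set had signals of 104, 135.6 and 67.1 on ketogenic arrays, against 59.1, 94.5 and 26.8 on chow arrays, and a log2 change of 0.89 ± 0.47 (SE). It overlapped between the diets as well, and chow array 2 was again the highest and chow array 3 the lowest of the chow arrays.

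The size of the difference in Slc22a5 depended on 1 chow array at a time. Without chow array 2 its log2 change was 1.17 on the brighter and 1.30 on the dimmer probe set, and without chow array 3 it was 0.41 and 0.39. The chow arrays were also part of the comparison on which the genes were chosen, so what follows is a description. Of 16 tested targets of PPAR-alpha, 8 were highest on chow array 2 and lowest on chow array 3, as Slc22a5 was. So were 5 of 9 carnitine genes and 3 of 7 regulators of these carriers, against 16.8% of all genes tested. Among other organic ion transporters it was 2 of 15, among neighbours of Slc22a18 1 of 6 and among other Slc22 genes 0 of 5. Cyp4a14, a fatty acid hydroxylase, had signals of 1208, 5490 and 502.1 on chow arrays 1, 2 and 3, and the thioesterase Acot1 had 105.2, 458.8 and 65.9. Both genes, and the order of the chow arrays itself, were picked out after their values were seen. The plot of chow signals sets these genes beside Slc22a5, and the difference between the chow arrays has no label that names it.

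**Figure D3:**
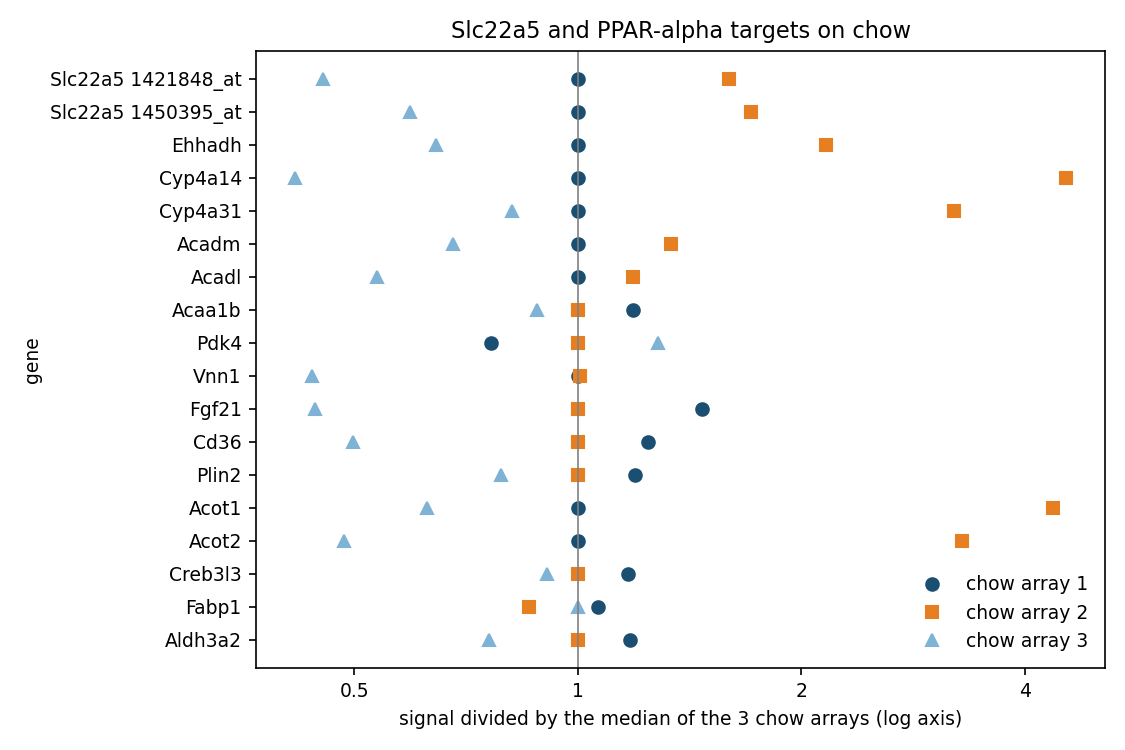
Signal on each chow array divided by the median of the 3 chow arrays (log axis) for the 2 probe sets of Slc22a5 and the 16 tested PPAR-alpha targets. Chow array 2 (orange squares) is highest and chow array 3 (light triangles) lowest for Slc22a5 and for 8 targets, among them Cyp4a14, Acot1, Acot2 and Ehhadh.

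Between the diets, 6 of the 16 targets of PPAR-alpha rose and 0 fell, against 6.52% higher and 0.868% lower among all genes tested. The median log2 change of the 16 targets was 1.07, that of all genes tested being 0.23. The 4 targets with the largest rise were Fgf21, Cd36, Pdk4 and Acot2. Pdk4, a kinase that turns off pyruvate dehydrogenase, had signals of 206.3, 608.2 and 349.9 on ketogenic arrays, against 41.6, 54.5 and 69.9 on chow arrays, with adjusted p = 0.0059 in limma. Acot2, a mitochondrial thioesterase, had 191, 259.4 and 192.1 on ketogenic arrays, against 36.8, 121.1 and 17.8 on chow arrays, with adjusted p = 0.0474 in limma. Acot2 missed the threshold in 10 of 17 alternatives, with adjusted p as high as 0.191, among them when any 1 ketogenic array or chow array 1 or 3 was left out. Without chow array 2, 9 of the 16 targets were called, and without ketogenic array 2 or 3, 4 were.

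Of 9 tested genes of carnitine synthesis and use, 0 passed the threshold in limma. An unadjusted p under 0.05 was found for 3 of them and for 2719 of all 11866 genes tested. The log2 change was above 0 for each of the 9, as it was for 8295 of the 11866 genes tested. It was above 0 for 8 of 9 with a common trimmed mean or without chow array 3. When the probe sets of a gene were averaged, it was so for 7 of 9. Its median as deposited was 0.46, that of all genes tested being 0.23. Crot, the peroxisomal carnitine octanoyltransferase, had signals of 3211, 2925 and 2519 on ketogenic arrays, against 2128, 1730 and 1362 on chow arrays, with no overlap, a log2 change of 0.75 ± 0.26 (SE) and adjusted p = 0.12 in limma. Bbox1, which makes the last step of carnitine synthesis, had 995.3, 973.7 and 729.8 on ketogenic arrays, against 833.7, 766.9 and 610 on chow arrays, with overlap and adjusted p = 0.532 in limma. It was picked out after its values were seen, as was Crat, the carnitine acetyltransferase, with 242.8, 268.9 and 157.1 on ketogenic arrays, against 85.2, 176.4 and 53.2 on chow arrays and adjusted p = 0.123 in limma. The count of called carnitine genes was 5 when arrays were scaled to the hybridization controls and 0 to 2 under the other alternatives.

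Slc22a18 lies in an imprinted region of chromosome 7, between Cdkn1c and Phlda2, and encodes a carrier whose transport role in liver is not settled. One probe set had signals of 404.4, 381 and 330 on ketogenic arrays 1, 2 and 3, against 330.6, 287.5 and 313.6 on chow arrays 1, 2 and 3, with overlap only between ketogenic array 3 and chow array 1. Its mean was 371.8 ± 38 on ketogenic and 310.6 ± 21.7 on chow arrays (SD, n = 3 each), a log2 change of 0.26 ± 0.24 (SE), which is close to the 0.23 of the median gene. The other had 269.8, 248.3 and 234.9 on ketogenic arrays, against 221.3, 243.4 and 201.2 on chow arrays, with overlap and a log2 change of 0.18 ± 0.24 (SE). Its sign depended on the scaling and was -0.05 after quantile normalization and -0.03 with the trimmed mean made equal.

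Of the genes around Slc22a18, 6 of 10 could be tested and 1 rose, against 6.52% called higher among all genes tested. The 1 that rose was Cars, the cysteinyl-tRNA synthetase, with signals of 168.7, 210.1 and 153.7 on ketogenic arrays, against 107.5, 69.2 and 67.5 on chow arrays. Its adjusted p was 0.0379 in limma. Cars missed the threshold in 6 of 17 alternatives, with adjusted p as high as 0.123, among them when any 1 ketogenic array or chow array 2 or 3 was left out. The imprinted neighbours Cdkn1c and Phlda2 were too dim to be tested.

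Slc22a23 encodes an orphan carrier, one without an established substrate. Its probe set had signals of 248.5, 311.3 and 222.3 on ketogenic arrays, against 273.1, 154.2 and 225.6 on chow arrays. The diets overlapped, with chow array 2 the lowest of all 6 arrays. The mean was 260.7 ± 45.7 on ketogenic and 217.6 ± 59.8 on chow arrays (SD, n = 3 each), and the log2 change was 0.29 ± 0.30 (SE). That change was 0.06 without chow array 2 and 0.05 with quantile normalization, and 0.65 when scaled to the hybridization controls.

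Slc22a15, whose human counterpart transports zwitterions, was too dim on both of its probe sets to enter the fit. One had signals of 3.2, 3.7 and 8.6 on ketogenic arrays, against 6.9, 13.8 and 14.5 on chow arrays. It was under the background on all ketogenic arrays and above it on chow arrays 2 and 3, and the diets overlapped. With the background as floor it was at least 1.2-fold lower on the ketogenic diet, a bound that does not allow for the spread between arrays. The other had 1.2, 6.6 and 7.1 on ketogenic arrays, against 9.9, 1.7 and 7 on chow arrays, all under the background, so no difference could be measured with it.

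How the members' changes moved with the scaling of the arrays is shown in the plot of 5 scalings. Array levels were not equal, and the median gene moved with the scaling: its log2 change was 0.23 as deposited, 0.60 when scaled to the hybridization controls, 0.12 with array medians made equal, 0.03 with trimmed means made equal and -0.01 after quantile normalization. A scaling by a single factor per array shifts all genes above the floor alike, so members above it moved with the median gene. Quantile normalization need not do so. It took the brighter probe set of Slc22a15 from -1.25 to -1.35 (log2) and Slc22a7 from -1.97 to -2.24. The brighter probe set of Slc22a5 had a log2 change of 0.79 as deposited and 0.54 after quantile normalization. Scaled to the hybridization controls, Slc22a5 and Slc22a18 were past the threshold as well, at log2 changes of 1.15 and 0.62, as were 33% of all genes.

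**Figure D4:**
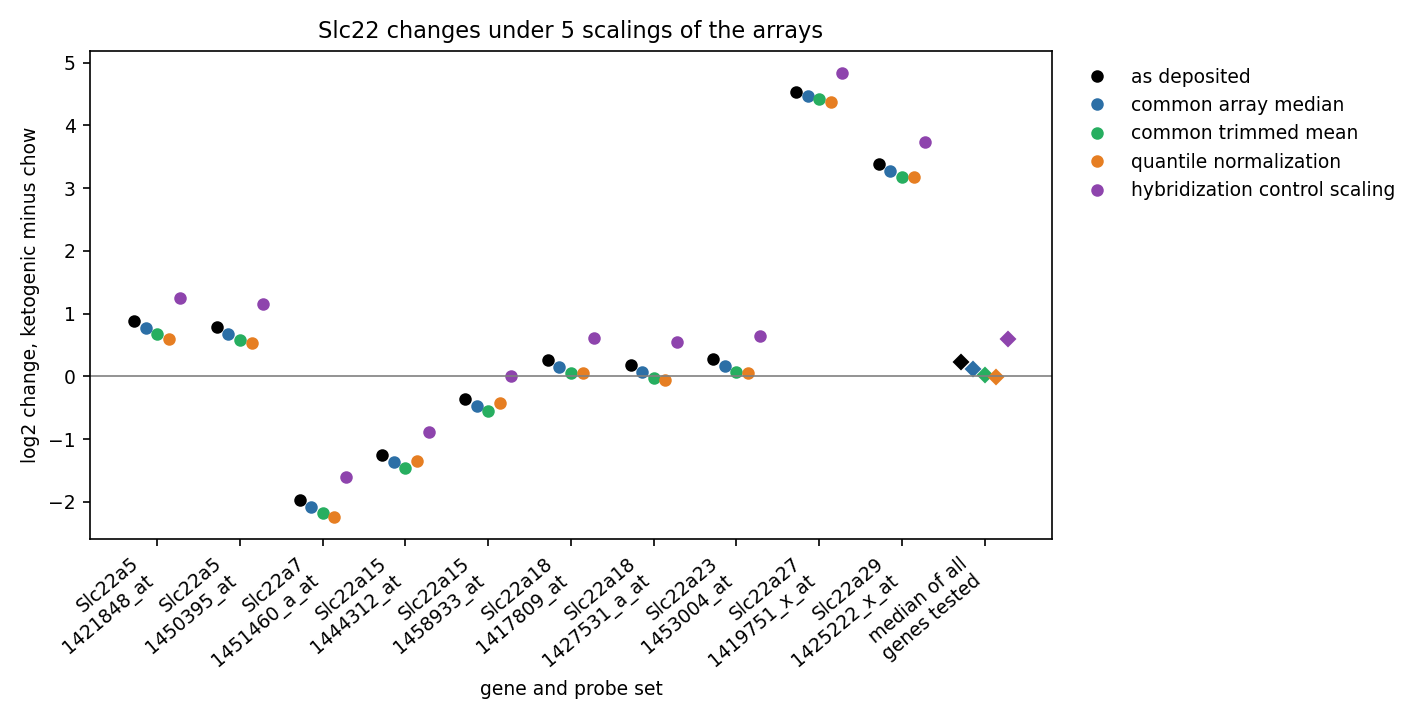
Log2 change (ketogenic minus chow) of each of the 10 Slc22 probe sets under 5 scalings of the arrays, with the median of all genes tested as diamonds at the right. The changes of Slc22a5, Slc22a7, Slc22a23, Slc22a27 and Slc22a29 keep their sign, while those of the dimmer probe sets of Slc22a18 and Slc22a15 do not.

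Of the other genes of the family, 14 of 19 had a probe set and 5 could be tested. None of the 5 passed the threshold in limma, and 0 had an unadjusted p under 0.05, against 2719 of all 11866 genes tested. Their median log2 change was -0.11 (0.25 when scaled to the hybridization controls). Slc22a12, the urate carrier of the kidney, had signals of 26, 47 and 21.9 on ketogenic arrays, against 42.2, 23.7 and 33.9 on chow arrays. Slc22a13 and Slc22a17 had log2 changes of -0.08 and -0.13. The other 9 were too dim, with no signal above 17.7, among them Slc22a21 and Slc22a4, the neighbours of Slc22a5 on chromosome 11. The remaining 5 were not analysed here.

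Among 15 tested carriers of other families that move organic ions or bile components, 3 rose and 1 fell, against 6.52% higher and 0.868% lower among all genes tested. The fall was that of Slco1a1, an organic anion uptake carrier, with signals of 209.7, 182.9 and 172.3 on ketogenic arrays, against 1009, 604.8 and 804.2 on chow arrays and adjusted p = 0.00325 in limma. Abcc4, which exports organic anions back to blood, rose to 62.5, 91.1 and 63.8 on ketogenic arrays, against 12.2, 11.4 and 12.9 on chow arrays, with adjusted p = 0.000844 in limma. Abcb1a, a drug efflux pump, rose by 1.73 (log2, adjusted p = 0.00601 in limma). Abcb4, the phospholipid pump of bile, rose by 1.27 (log2, adjusted p = 0.0255 in limma) and missed the threshold in 5 of 17 alternatives, with adjusted p as high as 0.0985, among them when any 1 ketogenic array or chow array 3 was left out. The balance depended on the scaling: 3 rose and 5 fell with trimmed means made equal or after quantile normalization, 3 rose and 3 fell with array medians made equal, and 5 rose and 1 fell when scaled to the hybridization controls.

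None of 7 tested regulators of these carriers, among them Ppara, Hnf4a and the bile acid receptor Nr1h4, passed the threshold in limma. Of these regulators 0 had an unadjusted p under 0.05, against 2719 of all 11866 genes tested. The log2 changes were 0.25 for Ppara, -0.00 for Hnf4a and -0.05 for Nr1h4. Hnf4a had signals of 1124, 881.1 and 855.7 on ketogenic arrays, against 1142, 1048 and 714.7 on chow arrays.

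The genes whose log2 signal followed each member most closely over the 6 arrays had Pearson correlations of 0.9925 to 0.9995. They were Tra2a and Ldb1 for Slc22a5, Galt and Polr3g for Slc22a7, Hcfc1 and Smyd2 for Slc22a18, Srpk1 and Ctsg for Slc22a23, Agfg1 and Palmd for Slc22a27, and Tubb5 and Camk1 for Slc22a29. With 11866 genes and 6 arrays that share the diets and their brightness, such values describe the arrays and carry no p.

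Liver is a mixture of cells, and in such samples fewer cells of a type and less RNA per cell cannot be told apart. Hepatocyte markers were bright on all arrays, with a summed signal of 44214 to 51312 on ketogenic and 57705 to 59281 on chow arrays, and 1 of 8 tested fell. Summed macrophage markers were 3880 to 5310 on ketogenic and 929.9 to 1209 on chow arrays, and 8 of 9 tested rose. For stellate cells the sums were 3052 to 4574 on ketogenic and 1088 to 1398 on chow arrays, and 7 of 8 rose. For sinusoidal endothelial cells the sums were 1148 to 1483 on ketogenic and 617.4 to 992.4 on chow arrays. Of 7 tested 0 were called and 4 had an unadjusted p under 0.05, as did 2719 of all 11866 genes tested. For neutrophils the sums were 75.7 to 91.1 on ketogenic and 12.9 to 15.4 on chow arrays, and 3 of 3 rose, while Camp had no signal above 1.8. The 3 that rose were under the background on all chow arrays and passed the filter only through their ketogenic signals. Nothing is therefore read from their count. The macrophage markers Gpnmb and Marco and the stellate cell marker Col1a1 also had a mean log2 signal under the background on chow. They too passed the filter only through their ketogenic signals, so nothing is read from their part in the counts. Among all genes tested, 6.52% were called higher and 0.868% lower. Markers of cholangiocytes summed to 74 to 87.5 on ketogenic and 44.3 to 69.4 on chow arrays and those of lymphocytes to 39.4 to 72.2 and 28.6 to 47.7, and none of the 3 tested of each was called. The part of these cells in the Slc22 signals was not tested. Hybridization controls, RNA added in a fixed amount, were at 478.3 to 511.2 on ketogenic and 633.2 to 650.3 on chow arrays, and actin probes at the 3′ end read, relative to those at the 5′ end, 1.49 to 1.63 on ketogenic and 2.00 to 2.20 on chow arrays. The same ratio for Gapdh overlapped, at 0.775 to 0.812 on ketogenic and 0.761 to 0.972 on chow arrays. The hybridization controls and the actin ratio moved with the diet, and their part in the results was not tested beyond the scalings given.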

How the data were processed

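Liver RNA was measured on 6 one-colour arrays, 3 per diet, grouped by sample title. Replicates were numbered in the order of deposition. The deposited values are linear intensity (MAS5 signal) per probe set, which the authors computed in GCOS with MAS5, per the submitters' processing notes. Versions, like the scaling target, were not given in the sources used here. Precision is limited by the number of arrays.

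Signals were kept as deposited, and those below 1.1, the table's 10th percentile, were set to that value before taking log2. The 64 control probe sets were left out. The 22515 probe sets whose mean log2 signal reached the median, 3.35, were kept, and the brightest stood for each of 11866 genes. The test was that of limma (version 3.58.1, R version 4.3.3; lmFit, eBayes), two-sided, and p-values were adjusted by Benjamini-Hochberg over all genes tested, with calls at 0.05. Standard errors of members came from the same fit on probe sets. For the background of 10.8, the 95th percentile over 27 bacterial control probe sets was averaged across arrays on the log2 scale. Where 1 diet's mean log2 signal lay under it, signals were raised to it and the fold is the lower of that between arithmetic means and that between geometric means. The fit was tested on simulated data with fewer changed genes than were called here. It called 5% of genes changed 2-fold and 79.3% of those changed 4-fold, and 4.04% of its calls were false. A gene that was not called may therefore still have changed.

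Gene symbols came from the platform annotation: 34945 probe sets had 1 symbol, 932 several and 9211 none listed. The array's build is not given, so coordinates are RefSeq's own. The members and the gene lists were chosen with earlier results of these data known. Named genes are all members, the other Slc22 genes, regulators and neighbours of Slc22a18, of each other list up to 4 called genes with the largest change or the brightest gene where none was called, the 2 genes most correlated with each member, and those said to be picked out later. Alternatives covered scaling, floor, filter, prior variance, probe sets and each array left out.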

Additional observations from a re-analysis of the deposited data

How the results depend on the processing

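The sign of the log2 change of Slc22a5, Slc22a7, Slc22a23, Slc22a27 and Slc22a29 stayed the same under every alternative that was run for them, while the dimmer probe sets of Slc22a18 and Slc22a15 changed sign under 2 and 3 of 13 (Slc22a15 lay under the background). Of the 6 members tested as deposited 3 were called, beside 7.39% of all genes tested. Among the 3, Slc22a27 and Slc22a29 passed the filter only through their ketogenic signals. Scaled to the hybridization controls, 5 were called, beside 33% of all genes. Without the probe sets that can bind several transcripts, Slc22a27 and Slc22a29 could not be tested, and 1 member was called, beside 7.37% of all genes. Without the filter on dim probe sets, when Slc22a15 was tested as well, 0 were called, beside 1.41% of all genes. Leaving out 1 array gave 2 or 3 called members, beside 4.4% to 7.61% of all genes, and without ketogenic array 2 Slc22a27 was not tested. Over all genes 877 were called as deposited, 3913 with hybridization control scaling, 1425 with a floor at the background, 1610 with a pseudocount of 16, 256 without a filter and 1438 with a trended robust prior, and 522 to 903 with 1 array left out. For probe sets these counts were 1045 as deposited, then 5123, 1942, 2269, 178 and 1872, and 310 to 1037. Carnitine genes called numbered 0 as deposited, 5 with hybridization control scaling, 1 after quantile normalization, 1 with the floor, 2 with the pseudocount, 1 with the trended prior and 0 to 1 with 1 array left out. Other organic ion transporters numbered 4 as deposited, 8 with trimmed means made equal or after quantile normalization, 7 with the pseudocount or the trended prior and 3 to 4 with 1 array left out. PPAR-alpha targets numbered 6 as deposited, 10 with hybridization control scaling, 2 without a filter and 4 to 9 with 1 array left out. The share of calls that were higher was 88.3% as deposited, 97.6% with hybridization control scaling, 76.8% with array medians made equal, 65.7% with trimmed means made equal and 63.7% after quantile normalization. Beyond what is said above, the cause was not tested. No paired analysis was possible because the labels give the arrays no shared replicate numbers. Signals near the background limit what can be said of Slc22a15 and of Slc22a27 and Slc22a29 on chow.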
